A study of Mus musculus with 16 samples.

Results

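Small leucine-rich proteoglycans (SLRPs) are secreted proteins built from a short core of leucine-rich repeats, and most of them carry one or a few glycosaminoglycan chains. They sit on collagen fibrils and set fibril spacing and diameter, and several also bind growth factors of the TGF-β family or signal to cells when they are released from the matrix. In adipose tissue they are made mainly by fibroblasts, adipocyte progenitors and cells of the vessel wall. The 9 SLRP genes described here were selected by name: *Bgn*, *Dcn*, *Aspn*, *Lum*, *Fmod*, *Prelp*, *Omd*, *Ogn* and *Podn*, out of 49066 gene symbols measured. The family was chosen from these data with differences between the groups already known, so every difference between groups given below for a member's level is a description and no independent evidence.

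RNA of brown adipose tissue (BAT) was sequenced in 16 mice, with 4 WT and 4 KO mice of each sex. KO mice (GDF15 BKO) lack *Gdf15*, which encodes a secreted factor of the TGF-β superfamily, in cells that express Cre recombinase from a transgene under the *Ucp1* promoter, that is in thermogenic adipocytes. All 16 mice carried the floxed *Gdf15* fl/fl alleles in homozygosity on the C57BL6/J background, and the WT controls were littermates without Cre. All were 18 weeks old and had eaten a high-fat diet (HFD, 60% of kcal from fat) for 12 weeks from the age of 6 weeks. Because *Gdf15* was deleted only in thermogenic adipocytes, other cells of the tissue kept an intact gene.

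Values are TPM (transcripts per 1000000), a unit that corrects reads for transcript length and gives every library the same total. How many reads lie behind a TPM value is not known, and its precision is therefore described by the spread between mice. The libraries had 58140 to 65746 transcripts above 0 TPM, of whose TPM the mitochondrial genome supplied 34.5 to 59.8%. *Gdf15* itself was low: 0.368 to 3.81 TPM in male WT, 0.0801 to 0.272 in male KO, 0.0622 to 0.311 in female WT, and listed at 0 in 3 of 4 female KO libraries and at 0.0794 in the other. *Ucp1*, the defining gene of brown adipocytes, was at 2353 to 4423 TPM in all 16 libraries. Skeletal muscle genes varied most between libraries of 1 group, and the summed TPM of 13 of them ran from 7.52 to 5468. In female WT replicate 4, transcripts without a gene match held 17.7% of the TPM.

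Promoter sequences are shown for *Bgn*, *Prelp* and *Podn*, the members whose levels separate the groups most in the TPM as deposited. Each is the 250 bases before the RefSeq start of the gene in build GRCm38.p6, in the direction of transcription, and capitals mark any match to 4 short motifs searched on both strands: TATAAA, known as the TATA box; CCAAT, the CCAAT box; GGGCGG, a GC box; and TGANTCA, the site of AP-1 factors. The *Bgn* window is chrX:73483351-73483600 on the plus strand, the *Prelp* window chr1:133921402-133921651 on the minus strand, and the *Podn* window chr4:108031955-108032204 on the minus strand.
Bgn: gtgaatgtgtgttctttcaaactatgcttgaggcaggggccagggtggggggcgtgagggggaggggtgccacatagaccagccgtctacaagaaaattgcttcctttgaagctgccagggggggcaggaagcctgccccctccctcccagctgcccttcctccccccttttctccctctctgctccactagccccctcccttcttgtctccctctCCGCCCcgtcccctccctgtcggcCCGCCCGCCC
Prelp: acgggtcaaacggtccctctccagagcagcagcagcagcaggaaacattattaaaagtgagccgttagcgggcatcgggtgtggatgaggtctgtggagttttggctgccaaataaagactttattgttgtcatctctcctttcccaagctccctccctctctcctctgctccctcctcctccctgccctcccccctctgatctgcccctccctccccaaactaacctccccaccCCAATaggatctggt
Podn: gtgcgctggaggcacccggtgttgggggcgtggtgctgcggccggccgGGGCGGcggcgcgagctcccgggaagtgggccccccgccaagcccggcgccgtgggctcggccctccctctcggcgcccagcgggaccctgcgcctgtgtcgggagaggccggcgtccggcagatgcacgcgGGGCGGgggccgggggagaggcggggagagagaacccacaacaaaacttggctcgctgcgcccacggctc
The *Bgn* window had a GC content of 64.4% and 3 matches to GGGCGG, all on the minus strand, at 34, 10 and 6 bases before the start. The *Podn* window was 78.0% GC with 2 GGGCGG matches as printed, the nearer at 70 bases, and the *Prelp* window was 55.6% GC with 1 CCAAT match at 15 bases. Over all 32851 RefSeq windows of this length the median GC content was 52.4%, GGGCGG occurred in 32.7%, CCAAT in 33.8%, TATAAA in 12.4% and TGANTCA in 6.75%. TATAAA was found in the windows of *Aspn* and *Ogn*, 2 matches in each, and no motif was found in those of *Fmod* and *Omd* or in the second window of *Podn*. Of the 9 members, 7 had a window in the RefSeq table, and *Dcn* and *Lum* did not. The annotated transcript starting nearest the printed window was Bgn-201 for *Bgn*, Prelp-202 for *Prelp* and Podn-206 for *Podn*. These held 97.1, 0.121 and 9.97% of the TPM of their gene. For *Prelp* and *Podn* the nearest transcript is therefore not the one with most of the TPM. How far these windows lie from the starts of Prelp-201 and Podn-201 was not examined. A match is a description of the letters and not evidence of binding.

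The 9 genes spanned a wide range of levels in BAT, and 1 gene made up most of the family's RNA. Over all 16 mice *Prelp* had the highest level, 200.7 ± 68.0 TPM (SD, n = 16). *Prelp* encodes a protein that anchors basement membranes to the connective tissue beneath them. *Dcn* (decorin) followed with 50.3 ± 7.84 TPM and *Bgn* (biglycan) with 34.5 ± 11.3. The ranges of *Prelp* (95.3 to 314) and *Dcn* (37.7 to 62.0) did not overlap, whereas those of *Dcn* and *Bgn* did, although *Dcn* was the higher of the pair in 15 of 16 mice. *Lum* (5.27 TPM), *Podn* (4.65), *Aspn* (3.78) and *Ogn* (3.39) formed a lower tier in which neighbouring members overlapped. *Lum* exceeded *Podn* in 10 of 16 mice, *Podn* exceeded *Aspn* in 10 of 16, and *Aspn* exceeded *Ogn* in 14 of 16. *Fmod* (0.604 TPM) and *Omd* (0.0803) came last, each in a range that did not overlap the member above it. Together the 9 genes summed to 301 ± 54.3 TPM in male WT, 416 ± 33.0 in male KO, 264 ± 15.9 in female WT and 232 ± 18.4 in female KO mice (SD, n = 4 each).

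**Figure D1:**
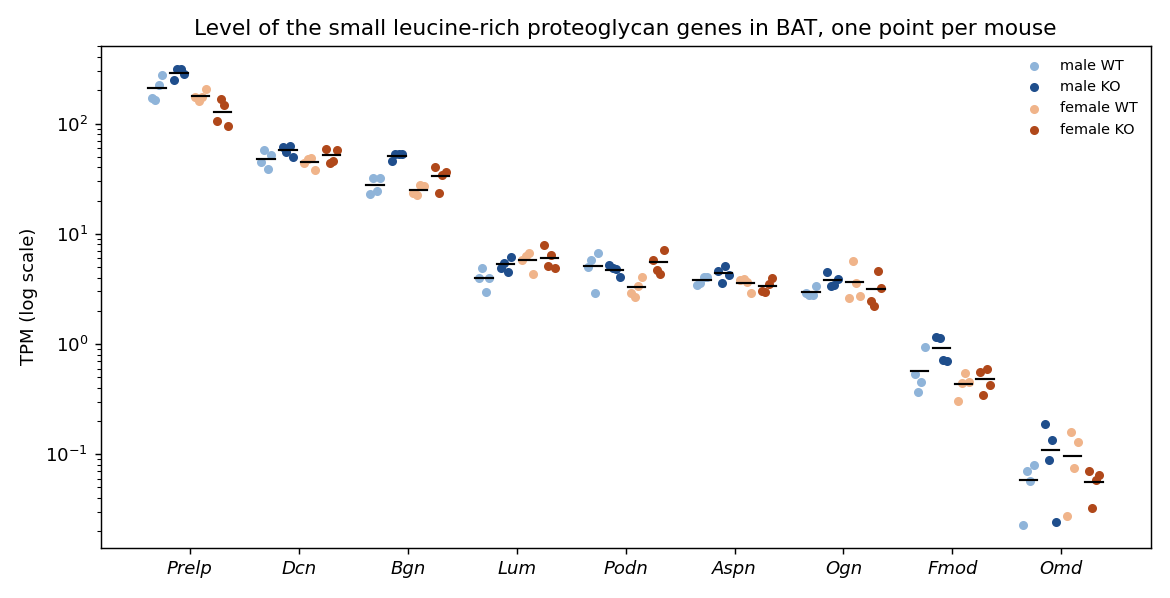
TPM of the 9 genes on a log axis, 1 point per mouse coloured by group, with a bar at each group's mean; genes are ordered by their mean over 16 mice. *Prelp* lies highest with a mean of 200.7 TPM and *Omd* lowest with 0.0803, and 4 genes share a tier between 2.20 and 7.87 TPM.

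In males and females the knockout was compared with WT by limma on log2(TPM + 0.5), over every gene with a mean of at least 1 TPM in the libraries compared. That minimum kept 7 of the 9 members. *Fmod* and *Omd* fell under it and have no test. Fold changes are on this log2 scale, which understates changes of genes with low TPM, with Benjamini-Hochberg adjustment over all genes and a threshold of 0.05. Since TPM are shares of a fixed sum, the median of all genes tested is the reference for each difference: it was 0.16 in males and 0.10 in females, and close to 0 once libraries were rescaled by median-of-ratios factors.

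In males, 6 of the 7 tested members had a positive log2 fold change, close to the 79.9% of all genes that did, with a median of 0.30 against 0.16 for all genes. By limma 0 of the 7 passed the adjusted threshold, as against 0.00821% of all genes (1 gene). An unadjusted p under 0.05 was found for 4 of 7, *Bgn*, *Prelp*, *Lum* and *Ogn*, against 18.7% of all genes. That count was 1 of 7 with median-of-ratios scaling, 1 of 8 without mitochondrial transcripts, 2 of 7 with the library prefix as a covariate (the first part of each library's name, whose meaning the labels do not give), and 1 to 3 of 7 when single libraries were left out (1 without male WT replicate 1). KO and WT ranges that did not overlap, with KO higher, were found for 1 of 7 (*Bgn*), against 9.54% of all genes. In females, 4 of the 7 were positive, against 62.7% of all genes, with a median of 0.06 against 0.10. By limma 0 of 7 passed the adjusted threshold, as did 0% of all genes. An unadjusted p under 0.05 was found for 2 of 7 (*Podn* higher, *Prelp* lower), against 17.1% of all genes, and 1 to 3 of 7 had one when single libraries were left out. In the TPM as deposited, ranges without overlap and KO higher were found for 1 of 7 (*Podn*), against 4.9% of all genes.

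**Figure D2:**
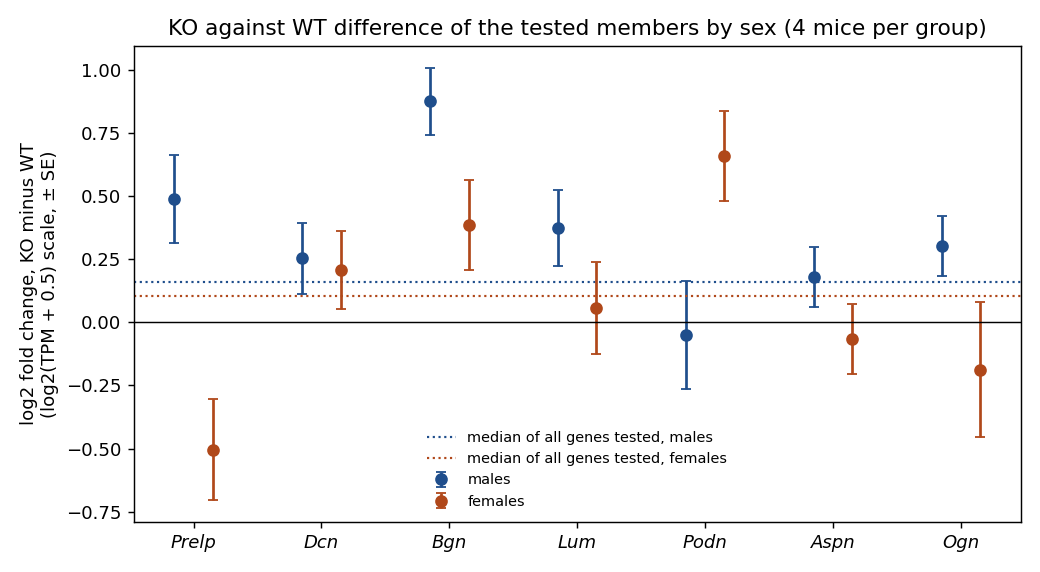
Log2 fold change of KO minus WT on the log2(TPM + 0.5) scale for the 7 tested members in males and females (4 mice per group), with bars of 1 SE and dotted lines at the median of all genes tested in each sex. *Bgn* lies above both dotted lines in both sexes, *Prelp* lies on opposite sides of 0 (0.49 in males, −0.50 in females), and *Podn* is at 0.66 in females and −0.05 in males.

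When both sexes were averaged in 1 fit of all 16 libraries, *Bgn* rose in KO mice, the one member to pass the threshold among 7 tested, against 2.95% of all genes. An unadjusted p under 0.05 was reached by 2 of 7, *Bgn* and *Dcn*, against 24% of all genes. The difference of the KO effect between males and females passed for 0 of 7 members by limma and for 0% of all genes, and its unadjusted p was under 0.05 for 3 of 7 (*Prelp*, *Podn*, *Bgn*), against 14.2% of all genes. These comparisons share libraries, so their values for one member are not independent of each other.

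Biglycan belongs to class I of the family, carries chondroitin or dermatan sulfate chains, binds collagen, and when soluble can signal through Toll-like receptors on macrophages. *Bgn* (ENSMUSG00000031375, chromosome X) was at 23.1, 32.2, 24.4 and 32.0 TPM in the 4 male WT mice and at 46.0, 53.1, 53.1 and 52.8 TPM in the male KO mice. All 4 male KO mice lay above all 4 male WT mice, and the means, 51.3 ± 3.50 and 28.0 ± 4.87 TPM (SD, n = 4 each), differed 1.83-fold. In females it was at 23.4, 22.5, 27.5 and 27.3 TPM in WT and 40.4, 23.6, 34.1 and 36.3 TPM in KO. Here 3 of 4 KO mice lay above all WT mice while KO replicate 2 lay inside the WT range, and the means differed 1.33-fold. Male KO mice also lay above all female KO mice, by 1.53-fold in means, whereas WT males and females overlapped. The log2 fold change was 0.88 (SE 0.13, limma adjusted p = 0.121) in males and 0.39 (SE 0.18, adjusted p = 0.305) in females. Over both sexes it was 0.63 (SE 0.11, adjusted p = 0.0172), and the difference between the sexes was 0.49 (SE 0.22, adjusted p = 0.337). The call over both sexes was lost without male KO replicate 3 (0.62, adjusted p = 0.0513) and when the library prefix was added as a covariate (0.61, adjusted p = 0.0866). In males the adjusted p fell to 0.0353 with median-of-ratios scaling, where the log2 fold change was 0.71.

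Sums of matrix and marker genes are given beside *Bgn* by group. The collagen sums separated the male groups, as did those of macrophage markers, whereas the female groups overlapped in each of the lists given here and the fibroblast sums overlapped in both sexes. The summed TPM of 10 collagen genes whose fibrils or networks SLRPs bind was 87.8 to 154 in male WT and 212 to 252 in male KO, and 112 to 196 in female WT and 153 to 242 in female KO. The sum of 14 macrophage markers (*Adgre1*, *Cd68*, *Csf1r* and others, 11 of them with a mean of at least 1 TPM and none at 0 throughout) was 49.1 to 95.4 in male WT, 123 to 179 in male KO, 60.1 to 126 in female WT and 80.5 to 118 in female KO. The sum of 18 fibroblast markers (*Pdgfra*, *Pdgfrb*, *Dpt* and others, 14 with a mean of at least 1 TPM) was 321 to 588 in male WT, 521 to 625 in male KO, 458 to 526 in female WT and 480 to 849 in female KO. The largest part of the fibroblast sum was *Gsn* (167 to 476 TPM over 16 libraries). By single gene, KO lay above WT without overlap for 7 of 15 tested fibroblast markers in males and 4 of 14 in females. The shares of all genes were 9.54 and 4.9%. KO lay below WT without overlap for 0 of these markers in either sex. The part of these lists in the *Bgn* values was not tested. In bulk tissue, a change in the number of cells of a type and a change in RNA per cell cannot be told apart.

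Decorin, the closest relative of biglycan, carries a single chain, binds TGF-β and limits the lateral growth of collagen fibrils. *Dcn* (ENSMUSG00000019929, chromosome 10) was at 44.7, 57.1, 38.6 and 51.9 TPM in male WT, 61.4, 55.4, 62.0 and 49.3 in male KO, 43.6, 47.5, 48.8 and 37.7 in female WT and 59.2, 43.5, 45.8 and 58.0 in female KO mice. KO and WT overlapped in both sexes, with 2 of 4 KO mice above all WT mice in each. The log2 fold change was 0.25 (SE 0.14, limma adjusted p = 0.342) in males, 0.21 (SE 0.15, adjusted p = 0.476) in females and 0.23 (SE 0.10, adjusted p = 0.187) over both. Set against one another within a library, the pair differed by group. The ratio of *Bgn* to *Dcn* TPM was 0.583 ± 0.0526 in male WT, 0.909 ± 0.137 in male KO, 0.575 ± 0.107 in female WT and 0.649 ± 0.0858 in female KO (SD, n = 4 each). In male KO mice it ran from 0.750 to 1.07, above every other group, the next highest mouse being at 0.744. These ratios are given without a test.

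**Figure D3:**
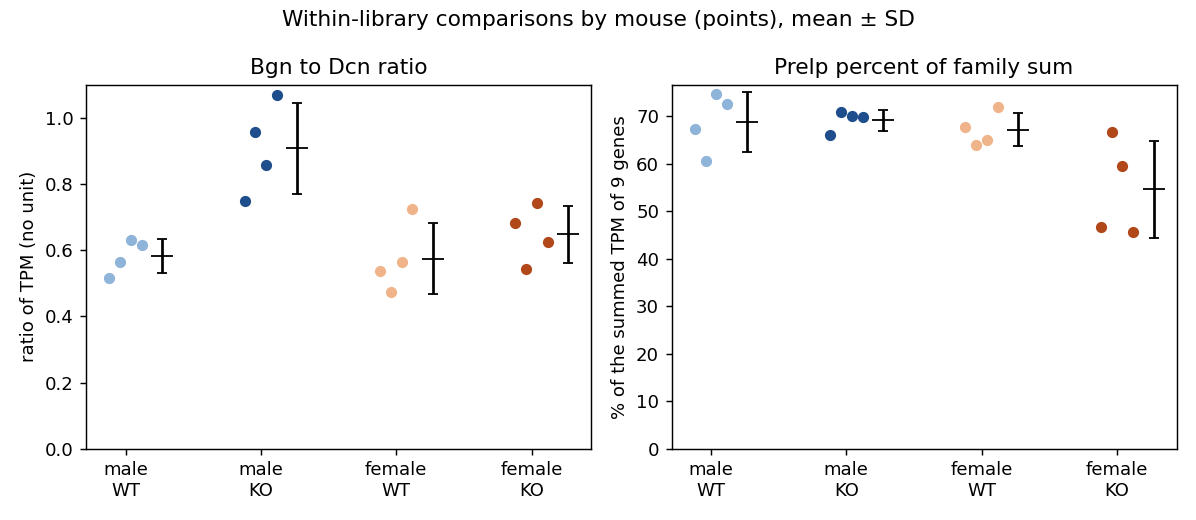
Ratio of *Bgn* to *Dcn* TPM (left) and *Prelp* as a percentage of the summed TPM of the 9 genes (right), 1 point per mouse with mean ± SD beside it. The ratio is highest in the 4 male KO mice (0.750 to 1.07), and the share of *Prelp* is lowest in female KO replicates 1 and 4 (46.7 and 45.5%).

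*Prelp* (ENSMUSG00000041577, chromosome 1), of class II, differed in direction between the sexes. It was at 172, 165, 224 and 275 TPM in male WT and 248, 310.4, 314 and 281 TPM in male KO mice. In females it was at 172, 159, 175 and 204 TPM in WT and 104, 165, 146 and 95.3 TPM in KO mice. In males 3 of 4 KO mice lay above all WT mice, and in females 3 of 4 lay below them, so neither pair of groups was fully separate. The means differed 1.38-fold in males (288 ± 30.7 against 209 ± 51.3 TPM) and 0.719-fold in females (128 ± 33.4 against 178 ± 19.0 TPM). KO males and KO females did not overlap and differed 2.25-fold, whereas WT males and females overlapped and differed 1.18-fold. Male KO above female KO without overlap held for 2 of the 7 tested members, *Prelp* and *Bgn*, against 15.6% of all genes, a comparison chosen after the values were seen. The log2 fold change was 0.49 (SE 0.17, limma adjusted p = 0.219) in males and −0.50 (SE 0.20, adjusted p = 0.264) in females. The male value was 0.32 with median-of-ratios scaling and 0.28 with the library prefix as a covariate. The difference between the sexes was 0.99 (SE 0.27, unadjusted p = 0.00219, adjusted p = 0.215), the largest among the members, and stayed between 0.87 and 1.14 when single libraries were left out.

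Because *Prelp* dominates the family, its share of the summed TPM shows the same groups from another side. It was 68.8 ± 6.27% in male WT, 69.2 ± 2.21% in male KO, 67.2 ± 3.51% in female WT and 54.6 ± 10.3% in female KO mice. Female KO replicates 1 and 4 were at 46.7 and 45.5%, and the other 2 (66.7 and 59.5%) lay close to or in the range of the other groups. Without *Prelp*, the other 8 genes summed to 92.5 ± 14.9 TPM in male WT, 127 ± 5.13 in male KO, 86.4 ± 6.56 in female WT and 104 ± 16.5 in female KO. Among cell type markers, the sum of 9 Schwann cell genes was 170 to 224 TPM in male WT, 199.996 to 249 in male KO, 133 to 211 in female WT and 97.8 to 153 in female KO. The largest part of that sum was *S100b* (36.8 to 199 TPM over 16 libraries), which fat cells also express. Its part in the *Prelp* values was not tested.

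Podocan, a class V member with few known functions beyond collagen binding and slower growth of smooth muscle cells, was the member that separated the female groups in the TPM as deposited. *Podn* (chromosome 4) was at 2.93, 2.67, 3.40 and 4.09 TPM in female WT and 5.74, 4.74, 4.33 and 7.15 TPM in female KO mice. All 4 KO mice lay above all 4 WT mice, the gap being 4.09 to 4.33 TPM, and the means (3.27 ± 0.625 and 5.49 ± 1.25) differed 1.68-fold. The highest WT value, 4.09 TPM, was that of replicate 4, where transcripts without a gene match held 17.7% of the TPM. Such transcripts lower the share left to every gene. As a share of matched TPM alone, WT replicate 4 would exceed KO replicate 3 (4.33 TPM, with 0.411% of the TPM unmatched). The female groups would then overlap, so their separation holds only in the TPM as deposited. In males *Podn* was at 4.99, 5.74, 2.92 and 6.76 TPM in WT and 5.17, 4.89, 4.76 and 4.09 TPM in KO, with the KO mice inside the WT range. The log2 fold change was 0.66 (SE 0.18, unadjusted p = 0.00481, limma adjusted p = 0.231) in females and −0.05 (SE 0.21, adjusted p = 0.904) in males, and the difference of males less females was −0.71 (SE 0.29, adjusted p = 0.284). In female WT and KO mice, 12 endothelial markers summed to 271 to 433 and 468 to 949 TPM, and 10 mural cell markers to 167 to 192 and 207 to 337 TPM, both without overlap. In male WT and KO mice the endothelial sums were 296 to 594 and 489 to 572 TPM, and the mural sums 168 to 250 and 214 to 303 TPM, both with overlap. All 12 endothelial and all 10 mural markers had a positive log2 fold change in males too, with a median of 0.41 for each list. Their part in the *Podn* values was not tested.

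**Figure D4:**
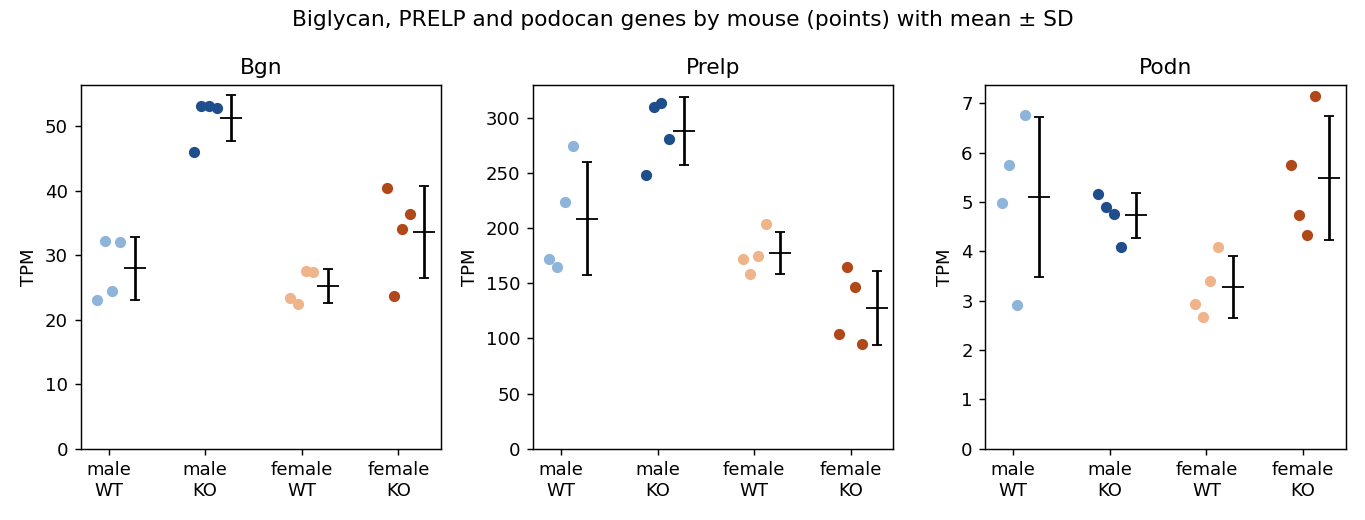
TPM of *Bgn*, *Prelp* and *Podn* by mouse in the 4 groups, with mean ± SD beside the points and axes from 0. Male KO mice lie above all male WT mice for *Bgn* (46.0 TPM and more against at most 32.2), and male KO above female KO mice for *Prelp*. In the TPM as deposited, female KO mice lie above all female WT mice for *Podn*.

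The other class II members were lower. Lumican, a keratan sulfate proteoglycan of cornea and other connective tissues, was at 3.99, 4.94, 2.98 and 4.01 TPM in male WT and 4.93, 5.42, 4.55 and 6.21 in male KO mice. *Lum* was at 5.81, 6.31, 6.64 and 4.32 TPM in female WT and 7.87, 5.07, 6.41 and 4.89 in female KO mice. KO and WT overlapped in both sexes, with log2 fold changes of 0.38 (SE 0.15, limma adjusted p = 0.242) in males and 0.06 (SE 0.18, adjusted p = 0.874) in females. In WT mice *Lum* was lower in males, with 3 of 4 below all females, by a log2 difference of −0.49 (SE 0.17, unadjusted p = 0.0199, adjusted p = 0.9999). *Podn* had the other unadjusted p under 0.05 between WT males and females (0.53, SE 0.23, higher in males), which made 2 of 7 members against 3.43% of all genes. After adjustment 0 of 7 passed by limma, against 0.0664% of all genes. Fibromodulin, which shares a collagen binding site with lumican, was under the minimum for a test. *Fmod* was at 0.368 to 0.949 TPM in male WT, 0.705 to 1.16 in male KO, 0.303 to 0.541 in female WT and 0.347 to 0.593 in female KO. Its male KO mice lay above all female KO mice, as for *Bgn* and *Prelp*. Osteomodulin, a gene of bone and tooth, was at or under 0.190 TPM in all 16 mice. *Omd* had its highest values in male KO and female WT mice, and its groups overlapped in each of the 4 pairs compared.

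*Aspn*, *Ogn* and *Omd* lie beside one another on chromosome 13. Asporin, a class I member without a glycosaminoglycan chain, binds TGF-β and collagen, and osteoglycin (mimecan), of class III, is a small keratan sulfate proteoglycan of many connective tissues. *Aspn* was at 3.78 ± 0.319 TPM in male WT, 4.37 ± 0.650 in male KO, 3.56 ± 0.451 in female WT and 3.38 ± 0.470 in female KO mice, with overlap in each pair. Its log2 fold change was 0.18 (SE 0.12, limma adjusted p = 0.423) in males and −0.06 (SE 0.14, adjusted p = 0.813) in females. *Ogn* was at 2.93, 2.80, 2.77 and 3.37 TPM in male WT and 4.52, 3.37, 3.41 and 3.90 in male KO mice. In males 3 of 4 KO mice lay above all WT mice, with a log2 fold change of 0.30 (SE 0.12, unadjusted p = 0.0312, adjusted p = 0.236). In females *Ogn* ranged from 2.62 to 5.68 TPM in WT and from 2.20 to 4.63 TPM in KO mice, and the log2 fold change was −0.19 (SE 0.27, adjusted p = 0.71).

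At the level of transcripts, most members were carried by 1 annotated transcript: *Lum*, *Ogn* and *Fmod* entirely, *Prelp* to 99.9%, *Bgn* to 97.1% and *Aspn* to 92.1%. *Dcn* was shared by 2. Dcn-201 and Dcn-202 are both 1758 nucleotides long in 8 exons with the same coding length of 1062 nucleotides, and in the annotation they share 7 exons and the whole coding sequence. Each has a noncoding first exon of its own, of 181 nucleotides, and so an annotated start of its own. Of all *Dcn* TPM they held 73.0 and 26.7%. The share of Dcn-202 in the sum of both was 33.9, 36.1, 34.3 and 33.3% in male WT mice and 32.4, 24.5, 19.9 and 21.2% in male KO mice. In females it was 18.2, 23.5, 18.4 and 17.5% in WT and 30.0, 21.9, 25.4 and 33.3% in KO mice. All male WT mice lay above all male KO mice and all female WT mice, and 3 of 4 female KO mice lay above all female WT mice.

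These shares do not enter the level of the gene, and they were tested over mice by exact two-sided permutation, adjusted over 8 comparisons of *Dcn* and *Podn* shares. The measure was chosen after the values were seen. Transcript shares of genes outside the family were not examined, so how often such a pattern occurs among all genes is not known. The difference of KO less WT was −9.95 percentage points in males (exact p = 0.0286, adjusted p = 0.0762) and 8.27 in females (exact p = 0.0571, adjusted p = 0.114). WT males exceeded WT females by 15.1 points (exact p = 0.0286, adjusted p = 0.0762), where 0.0286 is as low as groups of 4 can go. WT males and WT females share no library prefix, so sex and prefix cannot be told apart in that comparison. The prefix was not taken into account in any test of shares. The KO effect differed between the sexes by −18.2 points (exact permutation of genotypes within each sex, p = 0.00122, adjusted p = 0.0098). That permutation assumes no KO effect in either sex, so its p-value does not test equal effects in both. Leaving out single mice moved the male difference between −12.6 and −8.41 points and the female one between 6.38 and 10.2. *Podn* also had 2 main transcripts, Podn-201 and Podn-202, whose shares showed no difference past the threshold (exact p of 0.286 in males and 0.886 in females). The split between transcripts of equal length rests on the reads that reach the first exon, and their number is not known from TPM.

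**Figure D5:**
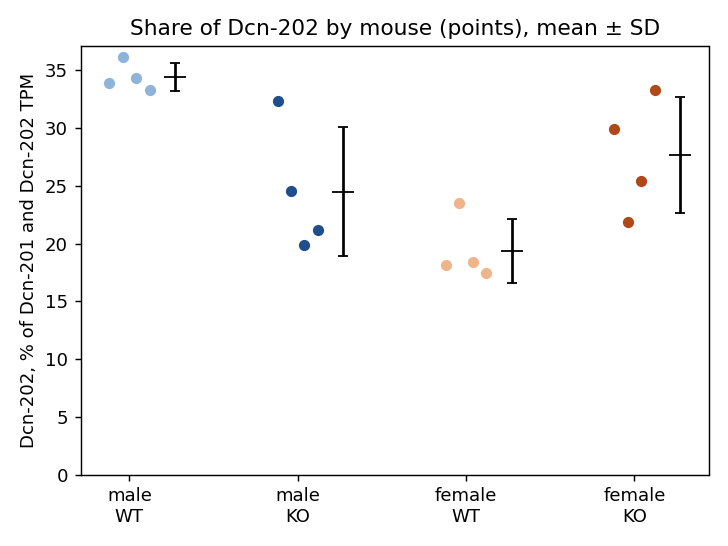
Dcn-202 as a percentage of the summed TPM of Dcn-201 and Dcn-202, 1 point per mouse with mean ± SD beside it and the axis from 0. The 4 male WT mice lie at 33.3 to 36.1%, above all female WT mice (17.5 to 23.5%) and all male KO mice (19.9 to 32.4%).

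The families that build and use SLRPs were described with lists of genes written for this purpose, by the mean KO effect over both sexes. Among the 10 collagen genes, 5 rose past the adjusted threshold and 0 fell (*Col14a1*, *Col1a2*, *Col6a1*, *Col6a2* and *Col6a3*), against 2.95% of all genes, with a list median of 0.61 against 0.13 for all genes. By sex the list median was 0.96 in males and 0.18 in females, against 0.16 and 0.10 for all genes. All 10 were positive in males, and in females 8 were positive and 2 negative, among them *Col14a1* (1.24 in males, −0.05 in females). Type VI collagen is the network to which biglycan and decorin attach. The extremes of the list by the mean effect were *Col1a1* (0.72, limma adjusted p = 0.0505) and *Col12a1* (0.20, adjusted p = 0.599). None passed in either direction among the 5 tested enzymes of 7 that build the linker of the glycosaminoglycan chain (median 0.06), the 11 of 16 enzymes of chondroitin and dermatan sulfate (median 0.16), the 5 of 8 enzymes of keratan sulfate (median 0.19) and the 6 of 17 other matrix proteoglycans (median 0.27). The extremes among these enzymes were *Chst15*, a sulfotransferase (−0.24), and *B4galt4*, a galactosyltransferase (0.45). Nor did any pass among 9 of 15 genes of ligands and receptors that SLRPs bind (median 0.33) or 8 of 13 proteases that process or cleave them (median 0.38). *Tgfb3* (0.60, adjusted p = 0.068) and *Met* (−0.36, adjusted p = 0.0653) were the extremes of the former, and *Mmp12* (1.01, adjusted p = 0.0748) was highest of the latter. By unadjusted p under 0.05 the counts in these 6 lists were 0, 1, 1, 3, 6 and 4, and the share of all genes was 24%.

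Other genes of the SLRP family added little. Of 9 further members and close relatives, 3 were tested (*Chadl*, *Tsku* and *Ecm2*) and 0 passed over both sexes, with 1 unadjusted p under 0.05. *Tsku* (tsukushi), a secreted protein of liver and fat, had log2 fold changes of 0.69 (SE 0.32, limma adjusted p = 0.279) in males and −0.58 (SE 0.29, adjusted p = 0.328) in females. Its difference between the sexes was 1.28 (SE 0.46, unadjusted p = 0.0144, adjusted p = 0.253). *Kera* and *Epyc*, SLRP genes of cornea and cartilage, were listed at 0 in 14 and 15 of 16 libraries.

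Markers of the cells that could supply SLRPs gave these counts for the mean KO effect. Of all genes, 2.95% passed in either direction. Of 14 tested fibroblast markers 7 rose past the threshold (*Cd34*, *Clec3b*, *Cygb*, *Mfap5*, *Pdgfrb*, *Pi16* and *Serpinf1*), with a median of 0.52. *Mfap5*, a microfibril protein, led them with 0.99 (limma adjusted p = 0.0133) and also passed in males alone (1.61, adjusted p = 0.0196). Of 12 endothelial markers 3 rose (*Cdh5*, *Robo4* and *Tie1*, median 0.58), of 11 macrophage markers 3 (*C1qa*, *C1qb* and *Cd68*, median 0.45) and of 10 mural markers 1 (*Rgs5*, median 0.53). Of 14 brown adipocyte genes *Ppara* fell by 0.67 on the log2 scale and none rose, with a list median of 0.12. None of the 5 Schwann cell or 13 skeletal muscle genes tested passed by limma, and 0 had an unadjusted p under 0.05. By sex, the list median was 0.90 in males and 0.11 in females for macrophage markers, and 0.47 and 0.36 for fibroblast markers. It was 0.41 and 0.76 for endothelial markers, and 0.41 and 0.70 for mural markers. Of 16 markers of tendon, cartilage and bone, where *Fmod*, *Aspn* and *Omd* are best known, 1 reached a mean of 1 TPM (*Col11a2*), and the sum of all 16 was 1.64 to 6.43 TPM. The defining tendon genes *Tnmd*, *Scx* and *Mkx* were at or under 0.665 TPM. Of 7 mesothelial markers none reached that mean, and their sum was 0.308 to 7.65 TPM.

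To find genes with a like pattern from mouse to mouse, the mean of its group was subtracted from each library and Pearson's r was taken over the 16 libraries for 12209 genes. The points share their libraries and their scaling to a fixed sum, so r is a description. Closest to *Bgn* were *Cfp* (0.93), *Dpep1* (0.92) and *Col5a3* (0.90), and closest to *Dcn* were *Clec3b* (0.90), *Serpinb6a* (0.90) and *Ing1* (0.89). Closest to *Prelp* were *Ttc7b* (0.94), *Rab11fip4* (0.94) and *Itpr1* (0.93), and closest to *Podn* were *Slc7a10* (0.85), *Gsn* (0.84) and *Scaper* (0.84). The leading genes for the other tested members were *Ttc27* for *Lum* (0.88), *Lgalsl* for *Ogn* (0.83) and *Rc3h2* for *Aspn* (0.80). Among the members themselves the highest r was 0.59, between *Dcn* and *Podn*, followed by 0.55 between *Bgn* and *Dcn*, and the lowest was −0.54, between *Dcn* and *Prelp*. No member was among the 3 genes closest to another.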

How the data were processed

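BAT libraries of 16 mice (4 per sex and genotype) were compared, with groups and replicate numbers taken from the sample labels, which do not say more about the origin of replicates, so p-values measure the spread between these samples. The authors prepared stranded mRNA libraries and quantified reads with kallisto (0.46.2 per the submitters' processing notes, which also name GRCm39), and deposited TPM per transcript. TPM are divided by transcript length and scaled to a fixed sum, and no read counts were used here, so the depth behind a value is unknown and no counting interval is given. The authors tested with DESeq2, which needs counts and was not run.

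Of 137438 transcripts, 135051 matched GENCODE mouse release 21 without their version number and 2387 did not, and the matched TPM were added up by gene symbol. Promoter windows are from RefSeq (GRCm38.p6). Beyond the positions of these windows no gene coordinates are printed, because the builds differ. Genes averaging at least 1 TPM were fitted on the scale log2(TPM + 0.5) with limma 3.58.1 (R 4.3.3, eBayes with a trend), which was tested on simulated data. Within-sex comparisons used 8 libraries, and the mean effect and its difference between sexes used 16. Single values were compared by exact two-sided permutation over mice. All 9 members are named. Other listed genes are named where they passed the threshold, were the highest or lowest of their list by mean effect, or were among the first 3 of their list, and *Ecm2* was named after its values were seen, to complete a count of 3. The members, lists and tests were chosen with earlier results of these data known. Alternatives changed the pseudocount, TPM minimum, scaling, trend, block, covariate and libraries. The removal of transcripts without a match and the leave-one-out runs of transcript shares were added after the values were seen.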

Additional observations from a re-analysis of the deposited data

Results flagged for a closer look

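The lowest of 4 male KO mice for *Bgn* was replicate 1 at 46.0 TPM, which stood apart from the other 3 at 52.8 to 53.1 TPM, so that the group's spread came almost wholly from this mouse. It still lay above all male WT mice. The highest share of Dcn-202 among female WT mice was 23.5% in replicate 2, apart from the other 3 at 17.5 to 18.4%. Both were found among 44 groups of 4 mice examined, and chance alone flags about 1 in 20 such groups. The KO effect on the share of Dcn-202 differed between the sexes by −18.2 percentage points, with male KO mice below WT and female KO mice mostly above. It was tested by permutation of genotypes within each sex, which assumes no KO effect in either sex, on a measure chosen after the values were seen. The adjustment covered only 8 comparisons of *Dcn* and *Podn* shares.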

How the results depend on the processing

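Of the 7 tested members, 0 passed the adjusted threshold in males as analysed, and 1 (*Bgn*) passed with median-of-ratios scaling (0.71, limma adjusted p = 0.0353), with mitochondrial transcripts removed (1 of 8 tested there, 0.78, adjusted p = 0.0413) and with all 16 libraries in one fit (0.88, adjusted p = 0.0314). Over both sexes 1 passed, against 0 with the library prefix as a covariate, and 0 to 1 when single libraries were left out (0 without male KO replicate 3). The log2 fold change of *Bgn* over both sexes kept its sign throughout, at 0.49 to 0.64 under other settings and 0.58 to 0.71 without single libraries. The number of genes called over both sexes was 360, and 54 without a TPM minimum, 177 at a minimum of 5, 12 with the prefix, 80 without unmatched transcripts and 31 to 1055 without single libraries. The cause of these changes was not tested. Small effects changed sign: *Podn* in males (0.0251 with the prefix), *Lum* in females (−0.0395 with median-of-ratios scaling and −0.0043 without unmatched transcripts), *Ogn* in females (0.11 with the prefix), and over both sexes *Aspn* (−0.0655 with median-of-ratios scaling and −0.0113 without mitochondrial transcripts), *Ogn* (−0.0635 and −0.0095 under the same) and *Prelp* (0.0071 with the prefix). For the difference between sexes *Dcn* changed to −0.0223 and −0.0176 under the same scalings. Without single libraries the ranges that crossed 0 were −0.27 to 0.0914 for *Podn* in males, −0.37 to 0.0208 for *Ogn* and −0.0672 to 0.14 for *Lum* in females, −0.0754 to 0.0632 for *Prelp* and −0.0333 to 0.16 for *Ogn* over both sexes, −0.0552 to 0.13 for *Dcn* between the effects of the sexes, and −0.0005 to 0.12 for *Aspn* between WT males and females. The prefix could not be fitted for WT males and females, because it is confounded with sex there. Within the 3 sets of 1 sex and 1 prefix that held both genotypes, 1 male (3 KO and 2 WT mice) and 2 female (1 and 1, 1 and 3), KO less WT was 0.91, 0.78 and 0.40 for *Bgn*, 0.28, −0.72 and −0.28 for *Prelp*, and 0.03, 0.86 and 0.33 for *Podn*. Over both sexes 2 members had an unadjusted p under 0.05, and 1 to 4 without single libraries.

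The labels do not say whether replicate numbers pair the samples. Deviations of same-numbered mice from their group means correlated from −0.12 to 0.35 over pairs of groups. Mice with different numbers were not compared, so these values cannot decide it. With the replicate block, *Bgn* was at 0.63 over both sexes (limma adjusted p = 0.0221) with 522 genes called in all, and at 0.88 in males (adjusted p = 0.0678). No call of a member changed under the block. The depth is unknown, and *Fmod* and *Omd*, the members with the lowest TPM, were both tested only without a TPM minimum, where *Bgn* over both sexes was again the 1 call among 9 members.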
